A study of Homo sapiens with 20 samples.

Results

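COX1 is the mitochondrial mRNA for the catalytic subunit of cytochrome c oxidase, the last enzyme of the respiratory chain. Its pseudouridine profile was followed base by base in K562, an established human leukaemia cell line. All positions from 5904 to 7445 of chrM (GRCh38) were taken, which are the 1542 bases or 514 codons of the gene, out of 16570 mitochondrial positions listed per library. Within the gene 5 positions (6043, 6044, 6293, 6762 and 6763) were chosen by their measured differences between groups, 6293 also by its high level, so those differences are given as a description. Base numbers count from the first base of the gene. They and the codon numbers assume that the listed positions are GRCh38 coordinates, and an offset in that numbering could not be checked.

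The profile came from CMC sequencing. CMC is a carbodiimide that stays attached to pseudouridine and disturbs reverse transcription there, so a modified base shows as a CMC-dependent signal. Pseudouridine is made from uridine after transcription by pseudouridine synthases. In mitochondria TRUB2 and RPUSD3 are the synthases linked to mRNAs, COX1 among them, and RPUSD4 is known for its site in 16S rRNA. NME6, a mitochondrial protein of the nucleoside diphosphate kinase family, binds RCC1L, a protein of the same pseudouridine synthase module.

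Mitochondria were isolated from the cells by fractionation, and their RNA was treated with 0.5 M CMC. The control group had 4 libraries, from cells with a non-targeting guide. The NME6 knockout had 4 libraries and the RPUSD4 knockdown 3. Another 3 came from cells that carried the NME6 knockout and also wild-type NME6 cDNA, called rescued cells. The rescued samples, with their untreated library, are numbered in a block apart from all other samples, and the labels give no batch. Any difference between rescued cells and another group therefore cannot be told apart from a batch difference. The labels do not say whether a group is 1 clone, how far RPUSD4 was lowered, or whether replicates were separate cultures, so p-values speak only of the spread among these libraries. NME6 and RPUSD4 RNA were not analysed here.

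Each value is 1 signed difference per position, CMC minus untreated, called the level here. Its unit is not stated and was taken to be percentage points. The depth is unknown, so no counting error can be given, and a base listed at exactly 0 may simply have had no reads. The untreated profile appears to be shared within a group. In COX1, 18 of 18 library pairs from the same group had between 6 and 51 identical negative values, and the 73 pairs from different groups had 0. An error in that profile would move a whole group together, and it cannot be told apart from a change in the CMC signal. The labels list 1 untreated library for the rescued cells and 1 for the RPUSD4 knockdown.

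Replicate 1 of control and replicate 1 of the NME6 knockout stood apart from their groups. In COX1 they were listed at 0 at 46.4% and 60.8% of positions, against 20.5% to 23.7% in the other control libraries and 26.1% to 37.5% in the other knockout libraries. Their mean COX1 levels were 0.0909 and 0.103 points, below the other 12 libraries, which lay between 0.120 and 0.196 points. The mean over the gene, the likeness to other genes and the calls are given with and without them.

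COX1 carried a low signal along most of its length and a few high positions. Of the 1542 positions, 24 were at 0 in all 14 libraries and 263 were above 0 in all 14. The mean over the 14 libraries was at least 0.1 points at 596 positions, at least 0.5 at 103 and at least 1 at 16, and at 1 position, 6293, it was above 5. At the gene's edges the level was 0 in all 14 libraries at position 5904, the first base, and at 5903 just outside. At 7445, the last base, 11 libraries were at 0 and the highest read 0.184 points, and at 7446 outside, the highest read 0.645 points. The profiles of control libraries 2 to 4 correlated with each other at 0.821 to 0.854 over 1537 positions, and those of the rescued libraries at 0.754 to 0.832. Rescued with control libraries gave a median of 0.597. These are correlations across positions, which are not independent replicates.

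**Figure D1:**
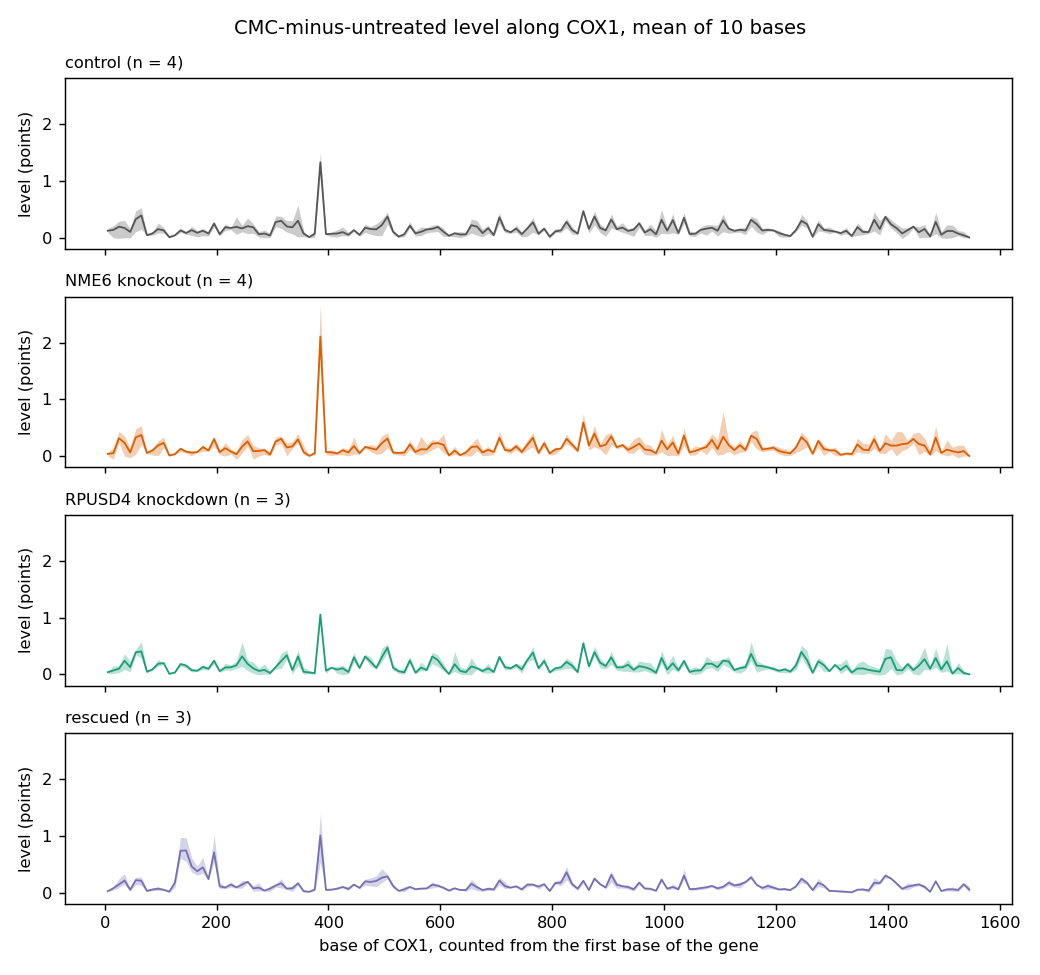
Level along COX1 in each group, as the mean of 10-base steps in percentage points (line: group mean, shade: range over libraries). All groups peak at base 390, and the rescued libraries alone also rise between about base 120 and base 200.

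With all libraries, the mean level over the gene overlapped between the groups. It was 0.156 ± 0.0435 points in control (SD, n = 4), 0.163 ± 0.0425 in the NME6 knockout (n = 4), 0.151 ± 0.0182 in the RPUSD4 knockdown (n = 3) and 0.135 ± 0.0122 in rescued cells (n = 3). Relative to the mean outside COX1 in the same library, the gene stood at 1.12 in control, 1.17 in the knockout, 1.12 in the knockdown and 1.24 in rescued cells. So the rescued group mean was the lowest of the 4 as deposited and the highest once scaled, and single libraries of other groups lay beyond it on both scales. Without replicate 1 of control and of the knockout, the control mean was 0.178 ± 0.00401 points (n = 3, 0.173 to 0.180) and the knockout mean 0.183 ± 0.0168 (n = 3, 0.164 to 0.196). The rescued libraries, at 0.120 to 0.142 points, then lay below both. Rescued cells stood 0.0432 points under control and 0.0486 under the knockout in that case, where with all libraries these gaps were 0.0215 and 0.0285. The knockout minus control difference of 0.00704 points turned to -0.0147 without control replicate 1 alone. Among the 13 mRNAs COX1 had the highest mean level over the 14 libraries, 0.152 points, and the highest single position. Both ranks include listed positions, and that single position, 6293, was chosen also for its level, so they are a description. The knockout mean was higher for ND6 (0.169 points) and the knockdown mean for ND4L (0.172), while COX1 was first in control and rescued cells. Without the listed positions COX1 was first in neither: 0.148 points against 0.152 for ND4L in control, and 0.125 against 0.128 for ATP8 in rescued cells. The genes whose mean followed that of COX1 most closely over the 14 libraries were ND1 (Pearson r = 0.945), COX3 (0.931) and ND2 (0.930). ND1 and ND2 encode subunits of complex I, and COX3 another subunit of cytochrome c oxidase. Without replicate 1 of control and of the knockout the values were 0.906 for ND1, 0.876 for COX3 and 0.842 for ND2 over 12 libraries, and ND5, another complex I subunit gene, came between ND1 and COX3 with 0.884.

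Position 6293, base 390 and the last base of codon 130, was the highest COX1 position in 13 of 14 libraries. Control libraries 1 to 4 read 10.8, 7.65, 9.56 and 8.01 points, and NME6 knockout libraries 20.6, 14.9, 14.5 and 14.2. The RPUSD4 knockdown libraries read 7.66, 6.72 and 6.98 points, and the rescued libraries 10.1, 8.15 and 3.99. All 4 knockout libraries lay above all other libraries, and the control, knockdown and rescued ranges overlapped. Rescued replicate 3 was the exception in rank: there 6044 and 6043 were higher. The group means were 9.001 ± 1.45, 16.05 ± 3.06, 7.12 ± 0.488 and 7.42 ± 3.12 points in that order. The knockout was 1.78 times the control level, and the rescued cells 0.824 times. Leaving out any 1 library kept the knockout between 5.53 and 7.66 points above control, whereas the difference between rescued cells and control changed sign without rescued replicate 3 (0.128 against -1.58 points). No p-value is given at this position, which was chosen for its level and differences.

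The signal at 6293 had a shoulder on 1 side. Positions 6290, 6291 and 6292 read 0.834, 1.27 and 1.66 points in control, and the next base on the other side, 6294, read 0.187. The knockout values at 6290 to 6292 were 1.03, 1.46 and 2.20 points, and those of rescued cells 0.350, 0.930 and 1.24. Position 6293 held 70.3% ± 4.45 of the signal summed over 6290 to 6293 in control, 77.5% ± 3.48 in the knockout, 67.4% ± 3.97 in the knockdown and 75.1% ± 1.79 in rescued cells. The knockout shares, from 74.0% to 82.3%, thus overlapped those of control, from 64.3% to 74.3%. On the other side, at 6295 and 6296, no group mean exceeded 0.0272 points.

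**Figure D2:**
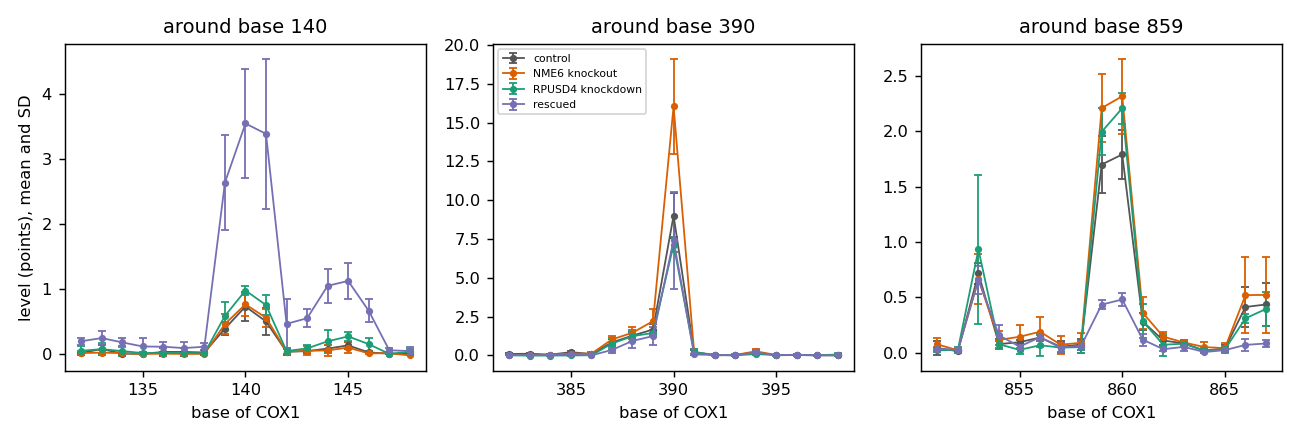
Level in percentage points (points: group mean, bars: SD) at the bases around 140, 390 and 859 of COX1. At base 390 the knockout mean of 16.05 points stands above the other groups, at bases 139 to 141 the rescued cells stand above them, and at bases 859 and 860 below them.

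Positions 6043 and 6044, bases 140 and 141 and both in codon 47, were high in rescued cells. At 6043 the rescued libraries read 3.06, 3.05 and 4.50 points. The control libraries read 0.528, 0.861, 0.966 and 0.557, the knockout libraries 0.961, 0.541, 0.729 and 0.814, and the knockdown libraries 1.03, 0.996 and 0.897. Every rescued library was above every other library, and the other 3 groups overlapped. At 6044 the rescued libraries read 2.83, 2.61 and 4.71 points. The control libraries read 0.367, 0.535, 0.767 and 0.324, the knockout 0.546, 0.367, 0.693 and 0.616, and the knockdown 0.921, 0.717 and 0.613. The pattern was that of its neighbour, with rescued replicate 3 the highest at both. Rescued cells stood at 4.86 and 6.78 times the control mean and 4.65 and 6.08 times the knockout mean. Among all positions of the gene they ranked 2 and 3 in rescued replicates 1 and 2, and 2 and 1 in replicate 3. Elsewhere they ranked 19 to 150 and 61 to 262.

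Between the other groups the libraries overlapped at both positions. The RPUSD4 knockdown means were 0.246 and 0.252 points above control at 6043 and 6044, and the NME6 knockout means 0.0331 and 0.0573 points above it. No p-value is given for these listed positions.

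Positions 6762 and 6763, bases 859 and 860 of codon 287, were low in rescued cells. At 6762 the rescued libraries read 0.400, 0.475 and 0.423 points. The control libraries read 1.32, 1.81, 1.81 and 1.86, the knockout libraries 2.64, 2.04, 1.96 and 2.21, and the knockdown libraries 1.83, 2.24 and 1.92. All 3 rescued libraries were below all others. At 6763 the rescued libraries read 0.431, 0.549 and 0.460 points, against 1.46, 1.87, 1.93 and 1.91 in control. The knockout libraries read 2.78, 2.10, 2.04 and 2.35, and the knockdown libraries 2.15, 2.37 and 2.11. Again no rescued library reached any other library. The control means were 3.93 and 3.73 times those of rescued cells, and the knockout means 5.11 and 4.83 times. The knockout libraries also lay above all control libraries at both, by 0.511 and 0.527 points in the mean, and the knockdown libraries above all control libraries at 6763. The knockdown means were 0.296 and 0.418 points above control at the 2 positions.

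**Figure D3:**
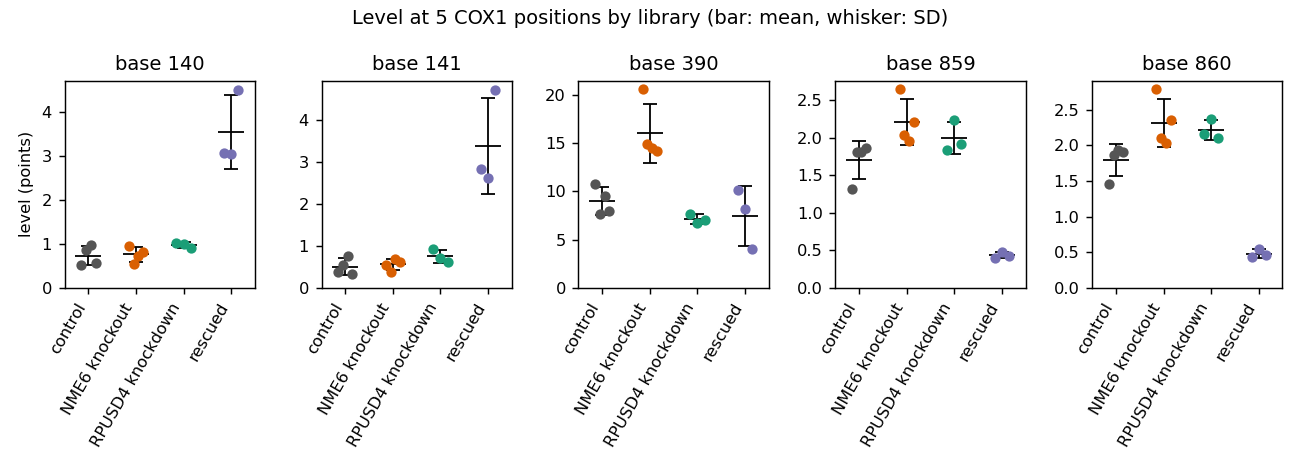
Level in percentage points at bases 140, 141, 390, 859 and 860 of COX1, 1 point per library (bar: group mean, whisker: SD). The rescued libraries lie above all others at bases 140 and 141, from 2.61 points up, and below all others at 859 and 860, at or under 0.549 points, and the knockout libraries lie above all others at base 390.

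The high values at 6043 and 6044 were part of a wider stretch. Positions were counted where all 3 rescued libraries lay above all 11 others, over the 1518 COX1 positions that were not 0 everywhere. There were 54, or 3.56%, against a background of 1.13% over all mitochondrial positions. Of the 54, 47 lay between positions 6023 and 6132, bases 120 to 229, and 45 of those were not among the 5 listed positions. The remaining 7 lay at bases 822 to 839, 1126 to 1146, 1442 and 1534. The stretch was found after the values were seen and includes positions chosen for this contrast, so its values are a description.

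Inside the stretch the excess came in several short peaks. Position 6042, base 139, next to the listed pair, read 2.34, 2.10 and 3.46 points in the rescued libraries and 0.256 to 0.826 in the 11 others. A second peak lay at 6047 and 6048, bases 144 and 145, where the rescued libraries read 1.18, 0.749 and 1.21 points and 1.27, 0.800 and 1.29 points. No other library exceeded 0.386 points at either base. Further peaks in rescued cells lay at 6057, base 154, with 1.22 ± 0.390 points (SD, n = 3), and at 6077, base 174, with 1.41 ± 0.568. At 6057 the control mean was 0.489 ± 0.282 points and at 6077 it was 0.477 ± 0.231. The last strong peak, at 6095 and 6096, bases 192 and 193, read 1.31, 1.14 and 2.39 points and 1.09, 1.08 and 2.76 points. There the 11 other libraries stayed at or under 0.793 points. Rescued replicate 3 was the highest library at 6042, 6057, 6077, 6095 and 6096.

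**Figure D4:**
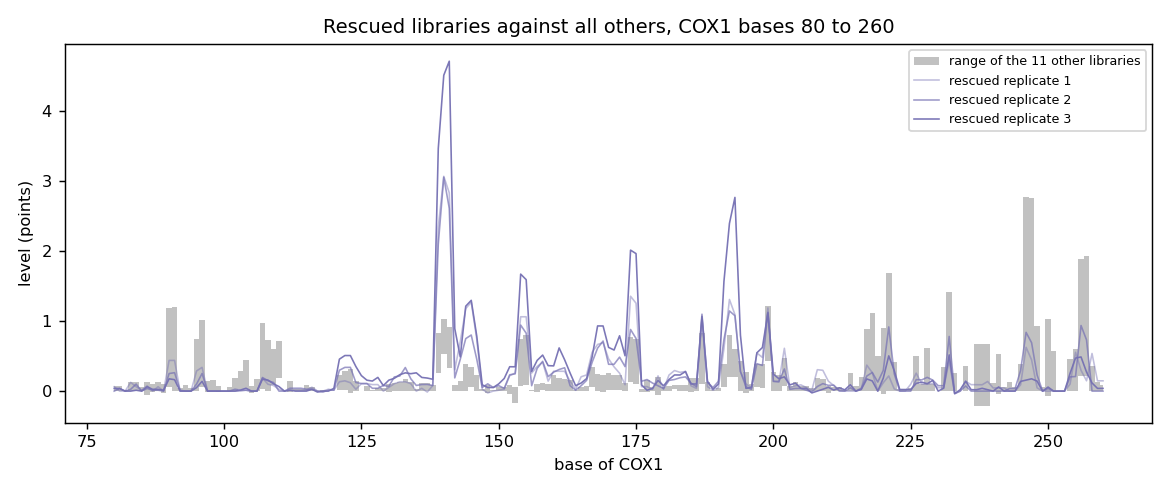
Level in percentage points at each base around the stretch of bases 120 to 229 of COX1 in the 3 rescued libraries (lines), over the range of the 11 other libraries (grey). The rescued lines leave the grey range at several peaks between bases 120 and 200, the highest at bases 140 and 141.

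Over the 100 bases from 101 to 200 (positions 6004 to 6103), the rescued libraries averaged 0.339, 0.319 and 0.523 points, a mean of 0.394 ± 0.112. The control mean was 0.107 ± 0.0266, the knockout mean 0.116 ± 0.0198 and the knockdown mean 0.117 ± 0.0134. The 11 other libraries lay between 0.0704 and 0.134 points, so the groups did not overlap. Without 6043 and 6044 the rescued mean was 0.331 ± 0.0945 points, against 0.0962, 0.105 and 0.102 in control, knockout and knockdown. The rest of the gene went the other way: outside this window and the listed positions the rescued mean was 0.111 ± 0.0188 points, against 0.151 ± 0.0454, 0.152 ± 0.0467 and 0.146 ± 0.0184. The rescued range there, 0.0893 to 0.123, still overlapped that of control, 0.0831 to 0.177.

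**Figure D5:**
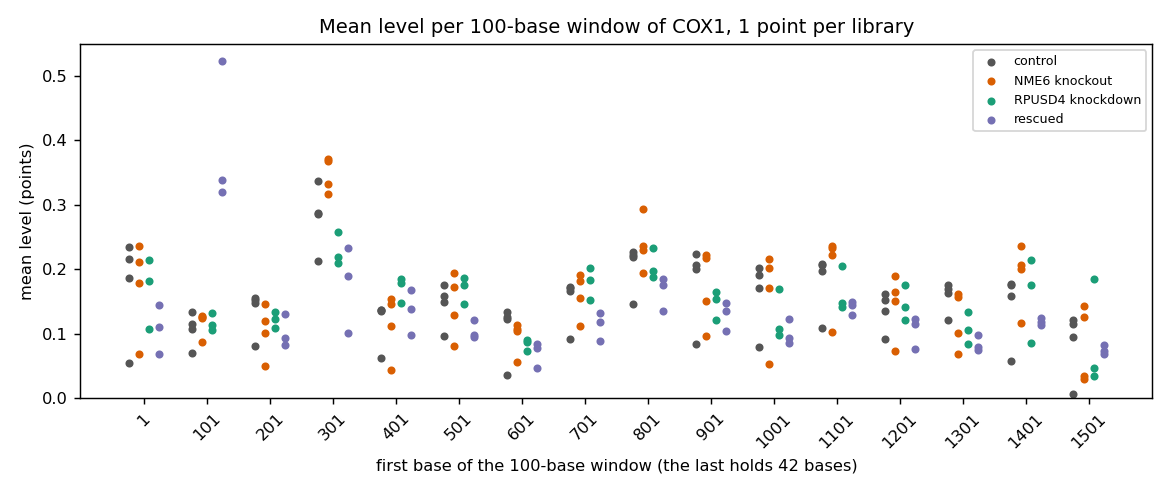
Mean level in percentage points per 100-base window of COX1, 1 point per library. In the window from base 101 the rescued libraries, at 0.319 to 0.523 points, lie above all others, and in no window do they all lie below the 11 other libraries.

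On a fixed grid of 166 windows of 100 positions over the whole molecule, 2 windows had all rescued libraries above all others, a background of 1.2%. They were 3001 to 3100, which holds the RPUSD4 site of 16S rRNA, and 6001 to 6100 in COX1. The COX1 window had the largest difference of the 166 against control, 0.281 points, and against the knockout, 0.273 points. It contains 6043 and 6044, which were chosen by their differences between groups. The windows were not ranked without them, so its rank is a description. Over positions 6004 to 6103 the differences without them were 0.235 points from control and 0.226 from the knockout. All rescued libraries were below all others in 9 windows, or 5.42%, and 0 of these lay in COX1. The rescued mean was below the control mean in 140 of the 166. A local difference in the 1 untreated library of the rescued group, or a batch difference, cannot be told apart from a higher CMC signal in this stretch.

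In the test across the molecule, 149 positions had a mean of at least 1 point and were fitted together, of which 16 lay in COX1. These 16 formed 8 separate sites, 7 with neighbouring bases and 1 single base. Positions 6043 and 6044 passed this filter only through the rescued libraries: without them their means were 0.807 and 0.588 points. Against control, the RPUSD4 knockdown had 0 of the 16 called by limma at a Benjamini-Hochberg adjusted 0.05 (background 0.671% of 149 called). At an unadjusted limma p under 0.05 it had 0 of the 16, beside 13 of the 149. The NME6 knockout had 0 called by limma (background 0%). At an unadjusted limma p under 0.05 it had 1 of the 16, a listed position, beside 7 of the 149. In rescued against knockout cells 4 were called, 2 higher and 2 lower, and all 4 are listed positions (background 3.36%). Against control 2 were called, both listed and higher (background 2.68%). These counts include positions chosen from the same comparisons, and nothing is read from them. The 48 tested positions of the other 12 mRNAs gave 0 calls in the first 3 comparisons and 1, lower, in rescued against control.

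The other 11 tested COX1 positions were called in none of the 4 comparisons. They were 5962, 5963, 6291, 6292, 6775, 6776, 6812, 6813, 6943, 7387 and 7388, and their lowest limma Benjamini-Hochberg adjusted p was 0.371. None had an unadjusted limma p under 0.05. Over all 149, listed positions included, 13 did for the knockdown and 7 for the knockout against control. For rescued cells 23 did against the knockout and 14 against control. In rescued against knockout cells all 11 had a lower mean, with a median difference of -0.527 points beside -0.403 over all 149. Against control all 11 were lower too, with a median of -0.421 beside -0.153. The knockout mean was above control at 9 of 11 (median 0.145 points, beside 0.131 over the 149) and the knockdown mean at 6 of 11 (0.0205 beside 0.126).

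Among these 11, the pair 6812 and 6813, bases 909 and 910, had the steadiest group means. At 6812 these were 1.498 points in control, 1.64 in the knockout, 1.52 in the knockdown and 1.35 in rescued cells. The libraries at 6812 ranged from 0.748 to 2.05 points. Position 6775, base 872 of codon 291 and 13 bases past the listed 6762, was lower in rescued cells. It read 0.871, 0.528 and 0.592 points there, against 0.719, 1.37, 1.44 and 1.45 in control. The knockout libraries read 0.603, 1.75, 1.78 and 1.17 points, and the knockdown libraries 1.14, 1.82 and 1.31. The rescued values overlapped those of replicate 1 of control and of the knockout alone. Near the start of the gene position 5962, base 59, showed the same arrangement: the rescued libraries read 0.739, 0.789 and 0.464 points, and replicate 1 of control and of the knockout 0.473 and 0.0894. The other 9 libraries lay between 1.06 and 1.74 points.

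Without replicate 1 of control and of the knockout, limma called 9 COX1 positions in rescued against knockout cells, 2 higher and 7 lower. Calls rose over the whole molecule as well: 22 of the 149 tested positions were called, where the fit with all libraries called 5. The lower ones were 5962, 5963, 6775, 6776 and 6943 beside the listed 6762 and 6763. At 5962 the difference was -0.779 points (SE 0.158, limma Benjamini-Hochberg adjusted p = 0.0132), and at 6775 it was -0.901 points (SE 0.232, limma Benjamini-Hochberg adjusted p = 0.0336). With all libraries the limma Benjamini-Hochberg adjusted p was 0.610 and 0.371. At both positions the 2 libraries left out were the only ones not above all rescued libraries. These smaller p-values therefore rest on the omission, and nothing is read from them. Against control 5 were called, which were 5962 (-0.833 points) and the listed 6043, 6044, 6762 and 6763. Over all 149 positions that fit called 12, where the fit with all libraries called 4. Without control replicate 1 alone the COX1 count against control was 4, beside 6 over all 149 positions. With libraries divided by their mean outside COX1, the called positions in both rescued comparisons were 6042, 6043 and 6044, all higher and none lower. Over the 159 positions tested on this scale, 3 were called against the knockout and 4 against control. Positions 6043 and 6044 were chosen from these comparisons. Position 6042 was high only in rescued cells, with an unscaled mean of 2.63 points there and 0.467 in the other libraries. Nothing is read from these calls. The calls of lower levels at 6762 and 6763 were absent on this scale, although the differences themselves hardly moved: -1.80 and -1.86 from the knockout, and -1.15 and -1.19 from control, where unscaled they were -1.78, -1.84, -1.27 and -1.31.

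Without the level filter, 14928 positions of the molecule and 1518 of COX1 were tested. In rescued against knockout cells limma called 36 COX1 positions at a Benjamini-Hochberg adjusted 0.05, which is 2.37% of them, 34 higher and 2 lower (background 1.05%). Of the 36, 30 lay between 6023 and 6132, all higher. Against control it called 28, or 1.84%, 27 higher and 1 lower (background 0.69%), and 24 of these lay in the stretch. The stretch was drawn from positions where these same rescued libraries were high, so calls inside it are a description and nothing is read from them. The comparisons share the rescued libraries, and 26 positions were called in both. None of the 5 listed positions was among them in this fit. At position 6048, base 145, the differences were 1.02 points (SE 0.107) against the knockout and 0.990 (SE 0.107) against control, and at 6060 they were 0.340 and 0.355 points. At 3 of the called positions all 11 other libraries were at 0, and there the value may reflect an absence of reads. Position 7437, near the end of the gene, was one of these 3, and it differed by 0.326 points from both groups.

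The same unfiltered fit gave few calls for the perturbations themselves. The RPUSD4 knockdown had 0 COX1 calls with limma (background 0.241%). At an unadjusted p under 0.05 it had 128, or 8.43%, beside 7.6% over all 14928 positions. The NME6 knockout had 2, or 0.132% (background 0.482%). Position 6056, base 153, was lower by 0.154 points (written as knockout minus control, -0.154; SE 0.0267; limma Benjamini-Hochberg adjusted p = 0.0308). Position 6425, base 522, was higher by 0.126 points (SE 0.0233, limma Benjamini-Hochberg adjusted p = 0.0426). At 6425 the knockout libraries read 0.135, 0.131, 0.131 and 0.129 points, all above the other 10 libraries, whose highest was 0.0836. A share of COX1 below the background is no result about the gene.

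Fewer positions set another group, or the other direction, apart from all other libraries. The rescued libraries were below all others at 23 COX1 positions, or 1.52% (background 1.9%). The knockout libraries were below at 12, or 0.791% (background 0.844%), and above at 5, or 0.329% (background 0.147%). Besides 6293 and 6425 these were 5928, 6566 and 6827. At 5928, base 25, the knockout mean of 1.09 points rested on replicate 1 at 3.61, while the other 3 knockout libraries read 0.208, 0.313 and 0.229. At 6566, base 663, the knockout libraries read 0.500, 0.309, 0.321 and 0.467 points, and the highest of the others was 0.268.

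The RPUSD4 knockdown libraries were below all others at 32 COX1 positions, or 2.11% (background 2.17%), and above at 6, or 0.395% (background 0.462%). The 6 lay close together, at 6352, 6354, 6369, 6371, 6372 and 6405, bases 449 to 502. At 6372, base 469, the knockdown libraries read 1.07, 0.833 and 0.761 points, and the control libraries 0.157, 0.458, 0.405 and 0.608. The knockout libraries there read 0.566, 0.260, 0.248 and 0.587 points, and the rescued libraries 0.435, 0.399 and 0.260. Their number is no larger than the background share gives, and none passed the unfiltered limma test.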

How the data were processed

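The 14 CMC libraries with a profile were grouped by their labels, and the other 6 of the 20 samples, untreated, enter only through the deposited differences. Trimmomatic, STAR, SAMtools, GRCh38 and hg38 are named in the submitters' processing notes, with no tool versions. The derivation of the values is not given in the sources available. The authors deposited a signed score per position, 2 to 16571, a delta per the file headers, and the numbers were taken as GRCh38 chrM coordinates. COX1 bounds came from RefSeq. No COX1 base or protein sequence was used.

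Positions with a mean of at least 1 over the 14 libraries (149) were fitted together with limma 3.58.1 in R 4.3.3 (empirical Bayes, mean-variance trend, 4 comparisons). Two-sided p-values were adjusted over all positions tested (Benjamini-Hochberg, threshold 0.05). The fit was tested on simulated data. Values were summarised with pandas 2.3.3 and numpy 2.4.6 in Python 3.11.15. Alternatives were other filters, signed log2, scaling by the mean outside COX1, no variance trend, fewer groups or libraries, and the replicate block. The positions named were the 5 listed ones, others past the threshold, the highest, and neighbours within 3 bases. Those of the stretch, and those where 1 group lay apart, were chosen after their values were seen. The members and lists were chosen with earlier results of these data known.

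Replicate numbers are shared between groups. Deviations of same-numbered knockout and control libraries correlated at 0.116 to 0.471 in all 4 pairs over the tested positions. For replicate 1 this was 0.471, against at most -0.340 with another number. Replicates 2 and 3 gave 0.286 and 0.193, against 0.246 and 0.159 with another number, and replicate 4 gave 0.116 against 0.121. Only replicate 1 stood out, so the values do not establish a pairing, and the labels give none. The replicate block was fitted as an alternative only. Same-numbered libraries in the other comparisons gave -0.425 to 0.0380 and were not taken as pairs.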

Additional observations from a re-analysis of the deposited data

Results flagged for a closer look

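In the 2 groups of 4 libraries, 36 sets of values were examined for a library far from the other 3 (Dixon's criterion), and 8 met it. Chance gives about 1 in 20 for independent sets. These sets are not independent, since neighbouring bases read alike and the gene and window means contain them. The 8 are thus not separate events and cannot be set against that rate. Of these, 5 concern control replicate 1. Its mean COX1 level was 0.0909 points, against 0.173 to 0.180 in the others. It read 1.32 points at position 6762 (others 1.81 to 1.86), 1.46 at 6763 (1.87 to 1.93), 0.719 at 6775 (1.37 to 1.45) and 0.716 at 6776 (1.37 to 1.45). The other 3 concern NME6 knockout replicate 1. It read 20.6 points at position 6293, above the 14.2 to 14.9 of the others, and 0.0894 at 5962, below their 1.34 to 1.59. Its mean over bases 101 to 200 was 0.0867 points, below their 0.125 to 0.128. At 6293 this library was thus high while most of its COX1 positions were low.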

How the results depend on the processing

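Over the settings planned and added no called value changed sign. Knockdown against control kept 0 COX1 calls throughout. For the knockout against control the 0 calls became 2 without a level filter and 1, a listed position, with a mean of 2 or more. For rescued against knockout the 4 calls became 36 without a filter, 1 with a mean of 2 or more, 2 with a median of 1 or more, and 9 without replicate 1 of control and knockout, and stayed at 4 when any 1 knockout or rescued library was left out. For rescued against control the 2 calls became 28 without a filter, 0 with a mean of 2 or more, 4 with signed log2 values, 4 without a variance trend and 5 without both replicates 1, with a range of 2 to 4 over single omissions of a control or rescued library. The positions called differed too: 2 higher as reported (6043 and 6044), 2 lower with a median of 1 or more (6762 and 6763), and 1 higher and 2 lower with only these groups fitted. Scaled by the mean outside COX1, the difference in mean COX1 level was 0.00915 for rescued minus knockout and 0.0152 for rescued minus control, where unscaled it was -0.0285 and -0.0215 points. The same scaling, chosen for the stretch after seeing the data, gave 0.380 and 0.390 over bases 101 to 200, against 0.277 and 0.287, and single omissions gave 0.213 to 0.315 and 0.223 to 0.324. With the replicate number as a block the calls were 0, 0, 4 and 2, in the order knockdown and knockout against control, rescued against knockout and against control. They were at the same COX1 positions as without it, all of them listed ones. This block joined same-numbered libraries of every group, so it is no test of a pairing of knockout with control alone. Over all positions tested the calls without both replicates 1 rose as well. They went from 5 to 22 for rescued against knockout and from 4 to 12 for rescued against control. The causes of these shifts were not tested. Fewer positions enter the stricter filters. A mean of 2 or more left 20 positions, of which 1, the listed 6293, lay in COX1, so the COX1 counts there are out of 1. A median of 1 or more left 93, with 16 in COX1. Over all positions these 2 filters gave 3 and 5 calls for rescued against knockout, and 1 and 5 for rescued against control. For the latter, signed log2 values gave 8 calls of 149 and no variance trend 6.

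Without depth, a true 0 cannot be told apart from a base that no read covered. The shared untreated profile leaves its own error out of the spread between libraries. With 3 or 4 libraries a group, a p that misses the threshold does not show equal levels.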
